A study of Saccharomyces cerevisiae with 8 samples.

Results

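The ribosome profiling libraries of 2 evolved yeast strains were compared, Trans and ODIRA_B, with 2 libraries of each among the 8 libraries of the series. All genes of the protein-coding annotation were taken, 6600 in number, of which 5725 held enough reads to be tested, and 119 of the 136 genes in the segments where the strains carry copy number variants (CNVs) were among them. Both strains are haploid Saccharomyces cerevisiae of the FY4/S288C background. Each descends from 1 colony isolated from a population evolved in glutamine-limited chemostats, Trans from an earlier time of the evolution than ODIRA_B, so the time of isolation and the strain cannot be told apart. Both carry a fluorescent reporter beside GAP1 and amplified copies of the GAP1 locus on chromosome XI, but the copies differ in length and form. In Trans, TOF2 to GAP1 was tandemly duplicated between transposon repeats, within a copy of the right end of chromosome XI that was moved to the right end of chromosome VIII, where it took the place of the telomeric genes beyond FLO5. Trans also carries an amplified segment around GLC7 on chromosome V. In ODIRA_B, VPS1 to ESL2 was triplicated by origin dependent inverted repeat amplification (ODIRA), a copying error at replication forks that leaves the middle copy inverted. For the libraries, colonies were regrown in duplicate glutamine-limited chemostats, and cycloheximide, a blocker of translation elongation, was added at harvest. The other 4 libraries, of the strains ODIRA_A and ComQuad, entered the fit and served to place the levels. The ancestor was not analysed here, so the data do not say which of the strains changed. Each strain is 1 clone, so its CNV and its other mutations cannot be told apart, and the duplicate chemostats measure only the spread of that clone.

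Ribosome profiling counts ribosome protected fragments (RPFs), the short stretches of mRNA that translating ribosomes shield from nuclease. The RPF count of a gene follows its mRNA level and how densely that mRNA is translated. GAP1 encodes the general amino acid permease, which imports glutamine among other amino acids, and the number of copies of a gene usually sets how much mRNA it yields. Yeast also adjusts expression by pathway: the cell wall integrity kinase Slt2 and the transcription factor Rlm1 raise genes that build the wall, the factors Msn2 and Msn4 raise stress genes, and growth signals raise the genes that make ribosomes.

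The RPFs on coding sequence numbered 7990570 and 7708635 in the Trans libraries and 3923583 and 3723082 in the ODIRA_B libraries, so low genes were measured less precisely in ODIRA_B. The Trans replicates differed more from each other than those of ODIRA_B. The SD of the log2 ratio between the 2 libraries was 0.377 in Trans and 0.202 in ODIRA_B, over 5001 genes. Levels are given in CPM, RPFs scaled to the size of each library after normalization, and differences as log2 of Trans over ODIRA_B. A difference was called where edgeR's quasi-likelihood F test, adjusted over the 5725 genes, gave a p under 0.05. The test called 494 genes higher and 576 lower in Trans, 8.63% and 10.1% of all genes and 18.7% together. Outside the CNV segments 8.53% of genes were called higher and 9.44% lower, and the median log2 difference over all genes was 0.01. Of the 1070 genes called, 258 were called in each of the 4 fits that left out 1 of the compared libraries, 83 of them higher and 175 lower in Trans. The counts were 135 higher and 219 lower without ODIRA_B replicate 1, 116 and 205 without ODIRA_B replicate 2, 951 and 918 without Trans replicate 1, and 318 and 425 or 317 and 426 without a ComQuad library. Of the 1070 genes, 237 had both Trans libraries beyond all 6 other libraries, and 616 had both ODIRA_B libraries beyond all 6 others. These counts were not tested against each other. A difference in a share of the cells and one in every cell cannot be told apart in these bulk libraries.

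Inside the CNV segments, which hold 119 tested genes, RPFs differed in the order of the gene copies. These copies were assigned from the CNV structures that the study describes. The 9 genes from VPS1 to the last gene before TOF2 (chromosome XI, 440608 to 457054 in R64) have 1 copy in Trans and 3 in ODIRA_B. All 9 were called lower in Trans, where 10.1% of all genes were, with a median log2 difference of -1.59 where the copies give -1.58. VPS1, which encodes a dynamin-like GTPase of membrane traffic, had 314 and 328 CPM in Trans, against 1099.6 and 1165 CPM in ODIRA_B, a log2 difference of -1.82 (SE 0.13, adjusted p = 9.1e-06). From TOF2 to GAP1 (458924 to 516871) both strains have 3 copies, and 2 of 28 tested genes were called, both lower in Trans, with a median of 0.08. TOF2, an rDNA silencing gene at the outer end of this shared segment, had 110.0 and 135 CPM in Trans, against 104 and 113 CPM in ODIRA_B, and did not pass (adjusted p = 0.44).

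Beyond GAP1, the order of the copies turned over at ESL2. From the gene after GAP1 to ESL2 (518063 to 630380), Trans has 2 copies and ODIRA_B has 3. Of 57 tested genes there, 33 were called lower and 0 higher in Trans, where 10.1% and 8.63% of all genes were. A negative difference was found for 55 of the 57. Their median was -0.52, where the copies give -0.58. ESL2 itself had 255 and 449.8 CPM in Trans, against 398 and 403 CPM in ODIRA_B, and its Trans libraries lay on either side of both ODIRA_B libraries. From PCK1 to the telomere (631152 to 663289) Trans has 2 copies and ODIRA_B has 1, and 7 of 8 tested genes were called higher in Trans, where 8.63% of all genes were, with a median of 1.24 where the copies give 1. Among them, BAS1, a transcription factor of purine and histidine synthesis, had 116 and 126 CPM in Trans, against 54.7 and 64.3 CPM in ODIRA_B, a log2 difference of 1.02 (SE 0.13, adjusted p = 5.8e-04). SIR1, a silencing gene, differed by 1.11 (adjusted p = 7.5e-04).

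On chromosome V (421115 to 440971), genes from after SAK1 to before YER137C have 3 copies in Trans and 1 in ODIRA_B. Of 7 tested genes 6 were called higher in Trans, where 8.63% of all genes were. Their median was 1.53, where the copies give 1.58. GLC7, which encodes the catalytic subunit of protein phosphatase 1, had 1555 and 747 CPM in Trans, against 395 and 381 CPM in ODIRA_B, a log2 difference of 1.57 (SE 0.27, adjusted p = 0.0037). Its Trans libraries were far apart, and the lower of them still exceeded both ODIRA_B libraries. The amplified copies end inside SAK1 and YER137C, so no copy number was set for the genes at these ends. SAK1, a kinase that activates Snf1, had 74.3 and 88.8 CPM in Trans, against 29.1 and 36.1 CPM in ODIRA_B. YER137C, of unknown function, had 94.6 and 68.1 CPM in Trans, against 10.8 and 10.6 CPM in ODIRA_B, a log2 difference of 2.92 (SE 0.24, adjusted p = 2.8e-05). The short open reading frame YER137W-A, on the other strand of the same locus, had 365 and 731 RPFs in Trans and 1 RPF in each ODIRA_B library. The ratio of Trans over ODIRA_B was 253 (95% interval 69.9 to 2094), an interval that covers counting error only. YER137W-A was at 0 or close to 0 in the ODIRA_A and ComQuad libraries too, with at most 0.374 CPM. It met the minimum of reads only through the Trans libraries, so its being higher there was fixed by the filter and is a description.

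**Figure D1:**
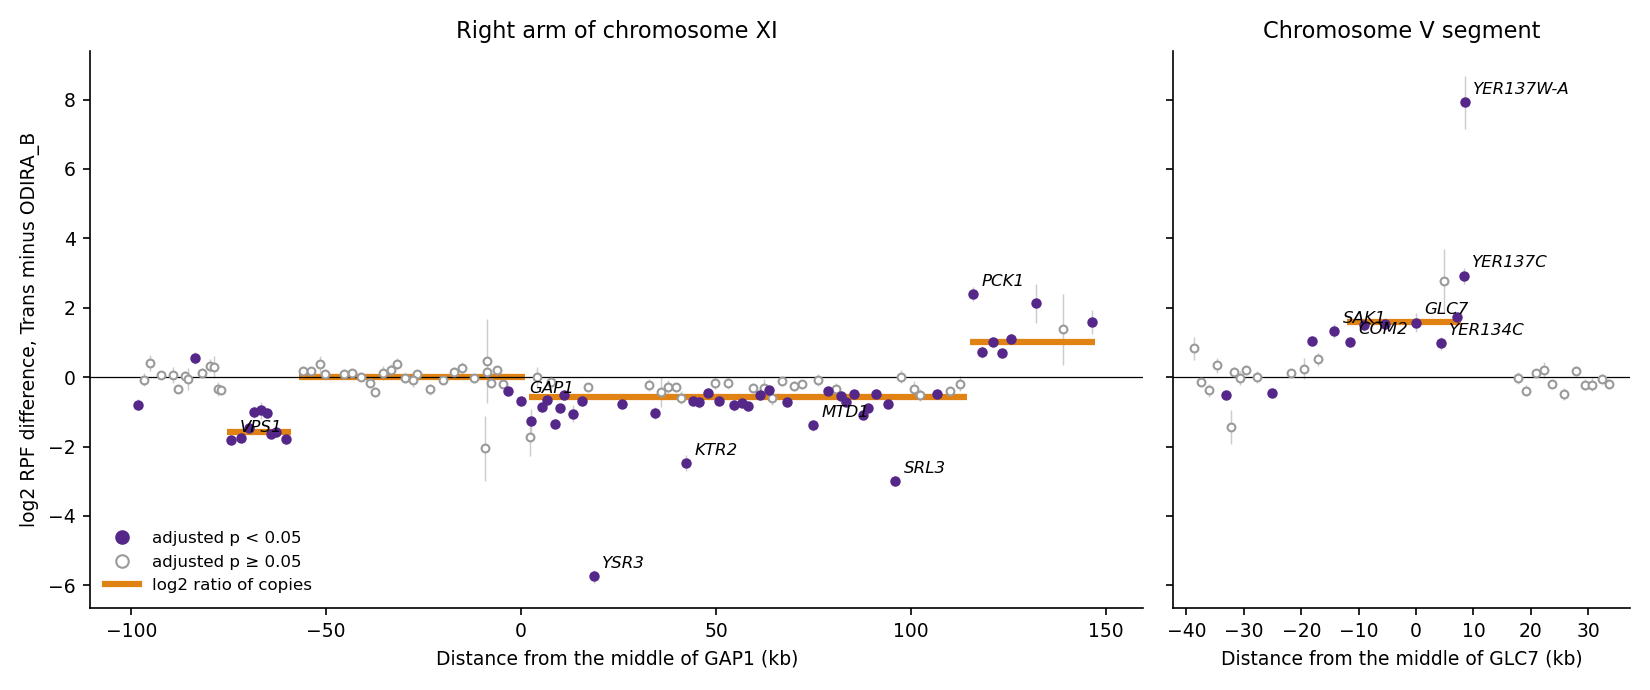
RPF difference of each tested gene (log2 of Trans over ODIRA_B, with its standard error as a bar) against its distance in kb from the middle of GAP1 on chromosome XI (left) or of GLC7 on chromosome V (right). Filled points passed an adjusted p of 0.05 and orange lines give the log2 ratio of the assigned copies; most genes lie near their line, whereas YSR3 at -5.74, SRL3 at -3.00 and KTR2 at -2.47 lie far below it and PCK1 at 2.39 lies above.

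The right end of chromosome VIII beyond FLO5 (537759 to 562047) is missing in Trans. Of 16 genes there only 7 could be tested, and 3 were called lower in Trans, where 10.1% of all genes were. IMD2, which encodes IMP dehydrogenase, the first enzyme of guanine nucleotide synthesis, had 35.6 and 34.2 CPM in Trans, against 249.8 and 234 CPM in ODIRA_B, a log2 difference of -2.79 (SE 0.14, adjusted p = 1.4e-06). Genes with no copy still had RPFs in Trans. For IMD2, 53.4% of its 28-base stretches occur elsewhere in the genome, and for YHR214W and PHO12 the share was 95.2% and 92.2%, so reads of their copies cannot be told apart. IMD1, the partial copy of IMD2 on chromosome I, had 40.3 and 21.1 CPM in Trans, against 124 and 115 CPM in ODIRA_B, and was also called (-1.96, adjusted p = 4.3e-04). FLO5, which stands on the near side of the junction and encodes a flocculin, had 11.2 and 4.52 CPM in Trans, against 10.3 and 5.59 CPM in ODIRA_B, with overlapping libraries, and 59.8% of its 28-base stretches occur elsewhere.

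A second fit gave the difference that remained beyond the ratio of the copies. Over all 5715 genes in that fit 17.5% passed, 9.29% lower and 8.19% higher in Trans. Of the 119 genes tested in the segments, it left out 3 at the chromosome V ends and 7 on chromosome VIII. Of the rest 14 passed, 10 lower and 4 higher in Trans, a smaller share than over all genes. The largest were 3 genes of the segment between GAP1 and ESL2. YSR3, which encodes a phosphatase of dihydrosphingosine 1-phosphate, had 8.48 and 7.18 CPM in Trans, against 375 and 463 CPM in ODIRA_B, a log2 difference of -5.74 (SE 0.18, adjusted p = 5.4e-08). Beyond the copies its difference was -5.15 (SE 0.18, adjusted p = 1.4e-07). Both ODIRA_B libraries held the highest levels of all 8 libraries, since ODIRA_A and ComQuad had 3.93 to 14.5 CPM. SRL3 had 21.3 and 24.3 CPM in Trans, against 176 and 189 CPM in ODIRA_B, and differed beyond its copies by -2.41 (SE 0.15, adjusted p = 5.1e-06). KTR2, a mannosyltransferase that builds wall mannoproteins, had 15.3 and 9.04 CPM in Trans, against 69.9 and 65.7 CPM in ODIRA_B, with -1.88 (SE 0.24, adjusted p = 5.1e-04) beyond the copies. In the other direction PCK1, which encodes the gluconeogenic enzyme phosphoenolpyruvate carboxykinase, had 332 and 489.9 CPM in Trans, against 83.3 and 73.5 CPM in ODIRA_B, and stood 1.39 (SE 0.20, adjusted p = 0.0011) above its copies. The spread over the other strains was wider still, as ODIRA_A reached 1238 and 996 CPM and ComQuad had 31.0 and 29.4 CPM.

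GAP1 itself, at 3 copies in both strains, had 8795 and 7960.1 CPM in Trans, against 13517 and 13485 CPM in ODIRA_B, a log2 difference of -0.69 (SE 0.13, adjusted p = 0.0050). The 2 Trans values lay close to those of ODIRA_A (8815 and 7798 CPM) and those of ODIRA_B lay below ComQuad (16145 and 16546 CPM). Without ODIRA_B replicate 1 or 2 the adjusted p of GAP1 was 0.054 or 0.058. KAE1, a gene of the same segment, was the other call there (-0.41, adjusted p = 0.037), and it was lost in 4 of the fits that left out a library. The remaining genes beyond their copies differed by less than 1 log2 unit. PET10, which encodes a lipid droplet protein, stood at -0.76 (SE 0.13, adjusted p = 0.0036) and MTD1, a methylenetetrahydrofolate dehydrogenase, at -0.81 (SE 0.15, adjusted p = 0.0055). On chromosome V, YER134C stood at -0.61 (SE 0.18, adjusted p = 0.038) and the transcription factor COM2 at -0.58 (SE 0.14, adjusted p = 0.017), and ECM9 among the genes below TOF2 at 0.57 (SE 0.17, adjusted p = 0.045). The calls of 4 genes, YSR3, SRL3, KTR2 and PCK1, held in each of the 4 fits that left out a Trans or ODIRA_B library.

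Outside the segments, some genes of the cell wall were lower in Trans and others higher, and those lower included genes of the cell wall integrity response. A list of 17 genes of the cell wall integrity response, drawn up after the values were seen, had 14 genes lower and 0 higher in Trans, where 10.1% of all genes were lower, with a median of -0.87. The number lower was 9 without ODIRA_B replicate 1 and 6 without ODIRA_B replicate 2. Of the 14, 12 had both ODIRA_B libraries outside the range of the other 6, as had 616 of the 1070 genes called in all. NCW2, which encodes a structural protein of the wall, had 67.9 and 67.4 CPM in Trans, against 827 and 1092 CPM in ODIRA_B, a log2 difference of -3.83 (SE 0.16, adjusted p = 3.5e-07). The other strains had 25.9 to 117 CPM. HSP150, an abundant O-mannosylated wall protein, had 1507 and 2209 CPM in Trans, against 7302 and 7810.0 CPM in ODIRA_B, a log2 difference of -2.02 (SE 0.20, adjusted p = 8.2e-05). Here 18.2% of 28-base stretches occur elsewhere, as the PIR proteins share repeats. The kinase of the pathway, SLT2, had 75.1 and 62.5 CPM in Trans, against 158 and 145 CPM in ODIRA_B, a log2 difference of -1.14 (SE 0.13, adjusted p = 2.7e-04), and the transcription factor RLM1 had 55.5 and 67.9 CPM in Trans, against 99.9 and 114 CPM in ODIRA_B, with a difference of -0.80 (adjusted p = 0.0038, and 0.061 without ODIRA_B replicate 2).

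Several enzymes of wall synthesis were lower in Trans as well. CHS1, a chitin synthase that repairs the wall after division and was singled out after its values were seen, had 73.7 and 81.5 CPM in Trans, against 266 and 325 CPM in ODIRA_B, a log2 difference of -1.93 (SE 0.15, adjusted p = 1.6e-05). The chitin to glucan crosslinkers UTR2 and CRH1 differed by -1.81 and -1.06, and the proteases YPS3 and YPS1, which sit on the cell surface, by -2.72 and -1.49. Both glucan synthase subunits were lower in Trans, GSC2 at -0.77 and FKS1 at -0.66, although neither they nor CRH1 passed without ODIRA_B replicate 2 (adjusted p = 0.067, 0.081 and 0.11). PUN1, a plasma membrane protein also chosen after its values were seen, had 115 and 117 CPM in Trans, against 489 and 570.4 CPM in ODIRA_B. Over the wider list of 37 tested wall genes 12 were lower and 5 were higher in Trans, where 10.1% and 8.63% of all genes were. Their median was -0.03, and 1 of the higher genes, FLO10, lies in the segment from PCK1 to the telomere. The counts were 8 lower and 3 higher without ODIRA_B replicate 1. CWP2, a major mannoprotein of the wall, had 4221 and 6190.1 CPM in Trans, against 2094 and 2085 CPM in ODIRA_B, a log2 difference of 1.32 (SE 0.19, adjusted p = 0.0011), whereas its relative CWP1 had 11.2 and 13.6 CPM in Trans, against 35.8 and 30.7 CPM in ODIRA_B (-1.43, adjusted p = 0.0029). CIS3, PST1 and BGL2, the other 3 genes of the integrity list, did not pass, at 0.26, -0.38 and -0.39.

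The 500 bases before each start codon were searched for the site that Rlm1 recognises, on both strands. An exact match stood before 7 of the 17 integrity genes and before 117 of 6572 nuclear genes (1.78%). It stood before 20 of the 555 nuclear genes called lower in Trans (3.60%) and before 7 of the 494 called higher (1.42%). The integrity list holds known Rlm1 targets, so its share is no independent finding. A match is a string of letters and not evidence of binding. PST1 and BGL2, which did not pass (-0.38 and -0.39), also have a match, whereas NCW2, the largest fall of the list, has none. The following sites were picked because their genes were all called lower in Trans, KTR2 among them inside a CNV segment. They therefore do not show that site and fall go together. They are 30 bases of the R64 genome in the direction of the gene, with the match in capitals.
HSP150 (chrX:120216-120245, + strand): acattttgagCTAAATTTAGattttggtca
SED1 (chrIV:600303-600332, + strand): gcatatatcgCTAAAATTAGccatcagaac
CWP1 (chrXI:260736-260765, + strand): tacgtcataaCTAAAAATAGcgttagccac
PIR3 (chrXI:144111-144140, + strand): gattagcaaaCTAATTATAGatcaaaggcc
KTR2 (chrXI:557400-557429, + strand): ttttgtctaaCTAATTATAGcattaataaa
RLM1 (chrXVI:381439-381468, - strand): gagatgaaagCTAATAATAGaaacagctcg
The last of them stands before RLM1 itself. SED1, an abundant wall protein, had 683 and 1553 CPM in Trans, against 3530.2 and 4346 CPM in ODIRA_B (-1.82, adjusted p = 0.0053), and PIR3, of the same family as HSP150, had 62.5 and 98.6 CPM in Trans, against 195 and 198 CPM in ODIRA_B (-1.29, adjusted p = 0.0022).

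**Figure D2:**
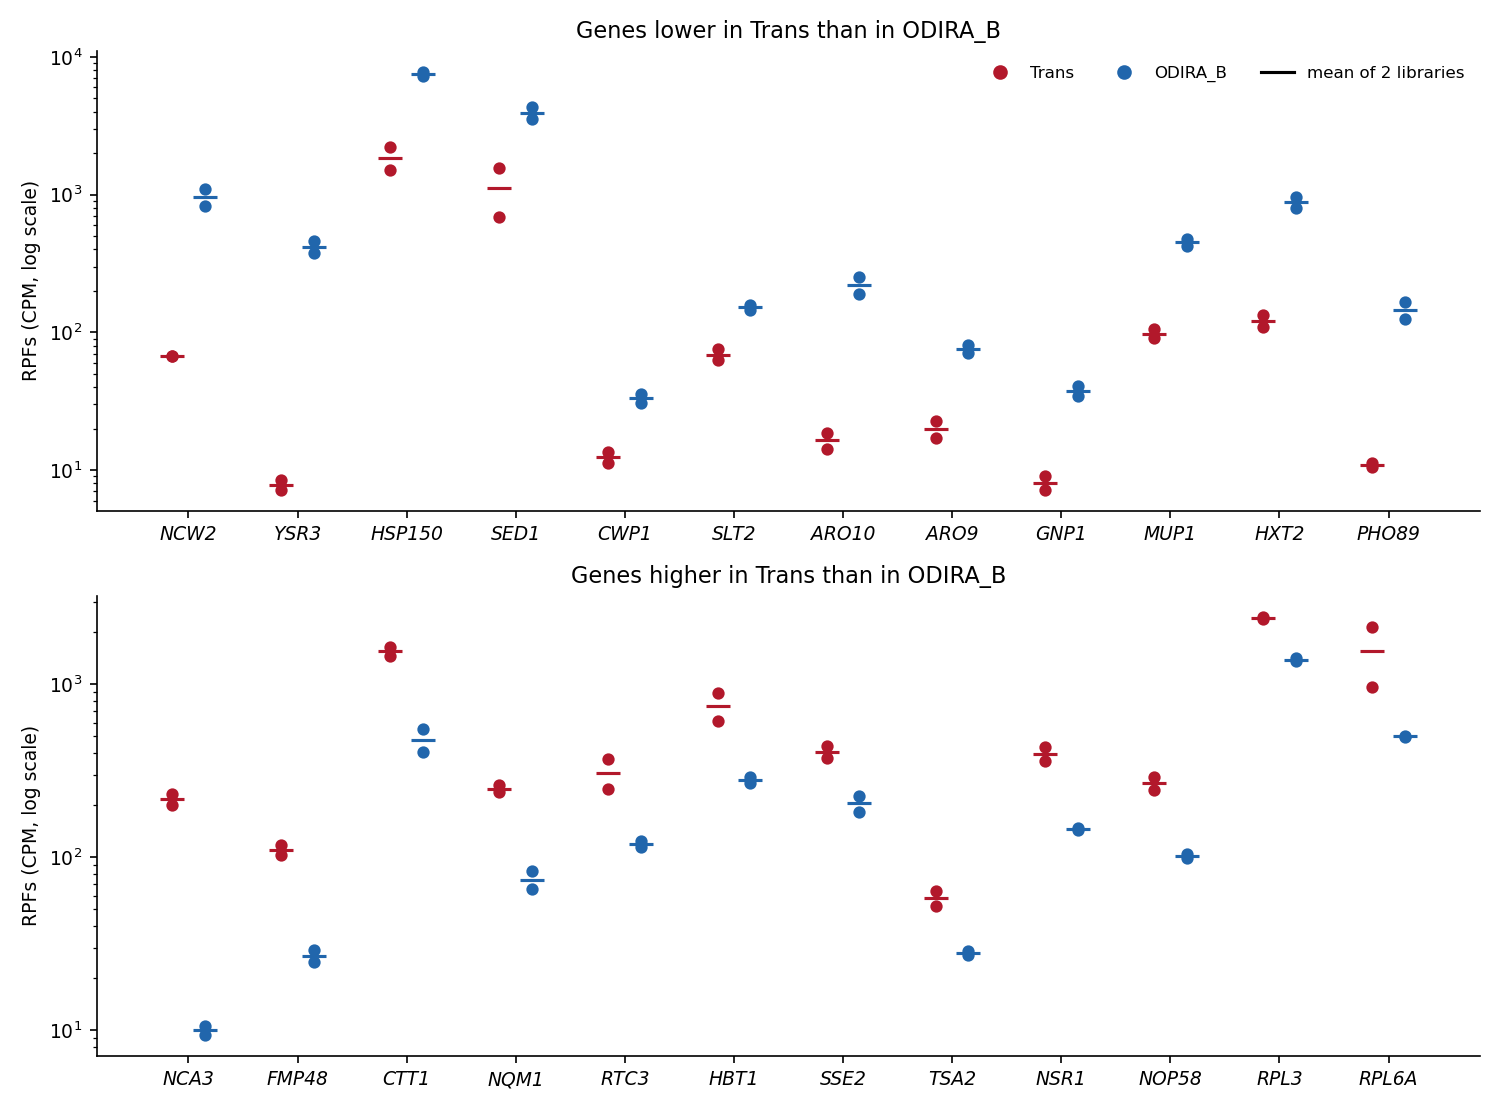
RPF level in CPM (log scale) of 24 genes in each of the 2 Trans libraries (red, left) and the 2 ODIRA_B libraries (blue, right), with bars at the means. The upper panel holds genes that were lower in Trans, those of the wall, amino acids and transport, and YSR3 of the segment after GAP1. NCW2 stood at 67.9 and 67.4 CPM in Trans against 827 and 1092 CPM in ODIRA_B. The lower panel holds genes that were higher, those of stress and ribosomes, and NCA3 and FMP48.

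Several amino acid permeases and catabolic enzymes were lower in Trans, though most genes of nitrogen use did not pass. Of 32 tested genes of nitrogen uptake and use, 9 were lower and 1 was higher in Trans, where 10.1% and 8.63% of all genes were. Their median was -0.30, and GAP1 was among the 9. The number lower was 5 without ODIRA_B replicate 1 and 5 without ODIRA_B replicate 2. GNP1, a high-affinity glutamine permease, had 8.98 and 7.18 CPM in Trans, against 34.7 and 40.5 CPM in ODIRA_B, a log2 difference of -2.21 (SE 0.25, adjusted p = 2.6e-04). The permeases BAP2 for branched-chain amino acids and DIP5 for glutamate and aspartate differed by -1.68 and -1.61, and DIP5 had 401 and 530.4 CPM in Trans, against 1402 and 1438 CPM in ODIRA_B. HIP1, the histidine permease, was the 1 gene of the list that was higher, with 47.5 and 59.8 CPM in Trans, against 25.8 and 26.0 CPM in ODIRA_B, although its adjusted p was 0.061 without ODIRA_B replicate 2. MEP2, an ammonium permease, did not pass (-0.40, adjusted p = 0.087). Of 8 genes of glutamine and glutamate metabolism only GDH2 passed, higher in Trans by 0.51, and it was lost in 7 of 8 fits that left out a library. GLN1, glutamine synthetase, had 2559 and 2490.4 CPM in Trans, against 2389 and 2362 CPM in ODIRA_B, a difference of 0.09 (SE 0.13).

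Some enzymes of amino acid breakdown were also lower in Trans. ARO10, which encodes the decarboxylase of the Ehrlich pathway that turns aromatic amino acids into fusel alcohols, had 18.6 and 14.2 CPM in Trans, against 191 and 253 CPM in ODIRA_B, a log2 difference of -3.75 (SE 0.22, adjusted p = 3.5e-06). ARO9, the aminotransferase of the preceding step, had 22.8 and 17.1 CPM in Trans, against 70.8 and 80.8 CPM in ODIRA_B, a log2 difference of -1.92 (SE 0.18, adjusted p = 6.5e-05). Both were at most 18.9 CPM in ODIRA_A and ComQuad, and their activator ARO80 did not pass (-0.07, adjusted p = 0.83). BAT2, a branched-chain aminotransferase, differed by -1.17, PUT1, proline oxidase, by -1.20 and CHA1, a serine and threonine deaminase singled out after its values were seen, by -2.35. CHA1 had 11.98 and 13.2 CPM in Trans, against 57.7 and 70.4 CPM in ODIRA_B, and ComQuad, with 68.0 and 63.4 CPM, lay near ODIRA_B.

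Some transporters of sulfur compounds were lower in Trans. Of 26 genes of sulfur and methionine metabolism, 9 were lower and 0 were higher in Trans, where 10.1% and 8.63% of all genes were. Their median was -0.28. All 9 calls had both ODIRA_B libraries outside the other 6, as had 616 of the 1070 genes called in all. Among the 9, MET1, lies in the segment after GAP1. The count was 7 without ODIRA_B replicate 1 and 6 without ODIRA_B replicate 2. The methionine permease MUP1 had 90.6 and 105 CPM in Trans, against 424 and 478 CPM in ODIRA_B, a log2 difference of -2.20 (SE 0.13, adjusted p = 3.6e-06). SAM3, a permease of S-adenosylmethionine, differed by -1.996 and MMP1, a permease of S-methylmethionine, by -1.51. Among the enzymes of the list, SAM1, an S-adenosylmethionine synthetase, differed by -0.96 (adjusted p = 0.0011).

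Transporters of sugar, phosphate and sodium also differed. Among all tested genes 10.1% were called lower in Trans and 8.63% higher. HXT2, a high-affinity hexose transporter, had 109 and 135 CPM in Trans, against 795 and 966 CPM in ODIRA_B, a log2 difference of -2.86 (SE 0.24, adjusted p = 3.5e-05). Of 17 tested hexose transport genes, 6 were lower and 1 was higher in Trans, but without ODIRA_B replicate 1 or replicate 2 only 2 were lower. The one that was higher, HXT5, a transporter of slow growth and starvation, had 1171 and 1239 CPM in Trans, against 741 and 709 CPM in ODIRA_B (adjusted p = 0.0025, and 0.051 without ODIRA_B replicate 2). Phosphate genes split by gene. PHO89, a transporter that couples phosphate to sodium, had 10.6 and 11.2 CPM in Trans, against 126 and 165 CPM in ODIRA_B, a log2 difference of -3.74 (SE 0.18, adjusted p = 7.9e-07), and the other strains had 4.35 to 5.32 CPM. PHO84, the main high-affinity phosphate transporter, had 732 and 846 CPM in Trans, against 509 and 452 CPM in ODIRA_B (0.72, adjusted p = 0.027, and 0.18 without ODIRA_B replicate 2). PHO8, the vacuolar alkaline phosphatase, differed by -1.05, and VTC5, of the polyphosphate polymerase, by -1.44. The sodium pumps ENA1, ENA2 and ENA5, singled out after their values were seen, had differences of -1.48, -1.35 and -1.28, but at least 90.03% of their 28-base stretches occur elsewhere and they count as 1 observation.

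A minority of sterol, proteasome and tricarboxylic acid (TCA) cycle genes passed, and those that did were lower in Trans. Over all tested genes 10.1% were called lower. Of 28 sterol genes 11 were lower and 0 were higher in Trans, with a median of -0.39, and the count was 4 without ODIRA_B replicate 1 and 4 without ODIRA_B replicate 2. ERG28, a scaffold of the demethylation enzymes in the sterol pathway, had 74.3 and 60.7 CPM in Trans, against 139.6 and 141 CPM in ODIRA_B (-1.05, adjusted p = 0.0013), and ERG27, of the same complex, differed by -1.02. ERG11, the lanosterol demethylase, had a difference of -0.33 and did not pass. For the proteasome 10 of 32 genes were lower and 29 had a negative difference, with a median of -0.30, but the count was 0 without ODIRA_B replicate 1 and 0 without ODIRA_B replicate 2. RPN4, the transcription factor of proteasome genes, which was singled out after its values were seen, was higher in Trans, with 264 and 320.5 CPM in Trans, against 208 and 198 CPM in ODIRA_B (0.52, adjusted p = 0.022, and 0.14 without ODIRA_B replicate 2). Of 17 TCA cycle genes 6 were lower in Trans, and without ODIRA_B replicate 1 or 2 the count was 1 or 2. IDH1, a subunit of the mitochondrial isocitrate dehydrogenase, had 112 and 104 CPM in Trans, against 188 and 186 CPM in ODIRA_B (-0.79, adjusted p = 0.0012).

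Genes encoded in mitochondrial DNA were far lower in Trans. The 28 open reading frames held 53 and 22 RPFs in Trans and 1317 and 1618 RPFs in ODIRA_B, although the ODIRA_B libraries were smaller, and the median difference of the 21 that could be tested was -6.04. These 21 met the minimum of reads only through the ODIRA_B libraries, so that their being lower in Trans was fixed by the filter and is a description. COX1, a subunit of cytochrome c oxidase, had 0.748 and 0.266 CPM in Trans, against 32.7 and 36.9 CPM in ODIRA_B, and COB, cytochrome b, had 1 and 0 RPFs in Trans, against 93 and 129 RPFs in ODIRA_B. The ODIRA_B over Trans ratio was 480.4 (95% interval 85.3 to 19059) for COB, for counting error. ATP6, an ATP synthase subunit, had 0 RPFs in both Trans libraries and 106 in the 2 of ODIRA_B, at least 76.5-fold lower in Trans with 3 counts over the group as the floor. The intron reading frames AI1 to AI5 and BI2 to BI4 share exons and reads with COX1 and COB and are not separate observations. When either ODIRA_B library was left out, only 1 of the 21 genes still met the minimum of 10 RPFs in 2 libraries. ODIRA_A and ComQuad were as low as Trans, with 18 to 46 RPFs in each library. Among 38 nuclear genes of the respiratory chain and ATP synthase, 4 were lower and 1 was higher in Trans, with a median of -0.07. Over all genes 10.1% were lower and 8.63% higher.

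**Figure D3:**
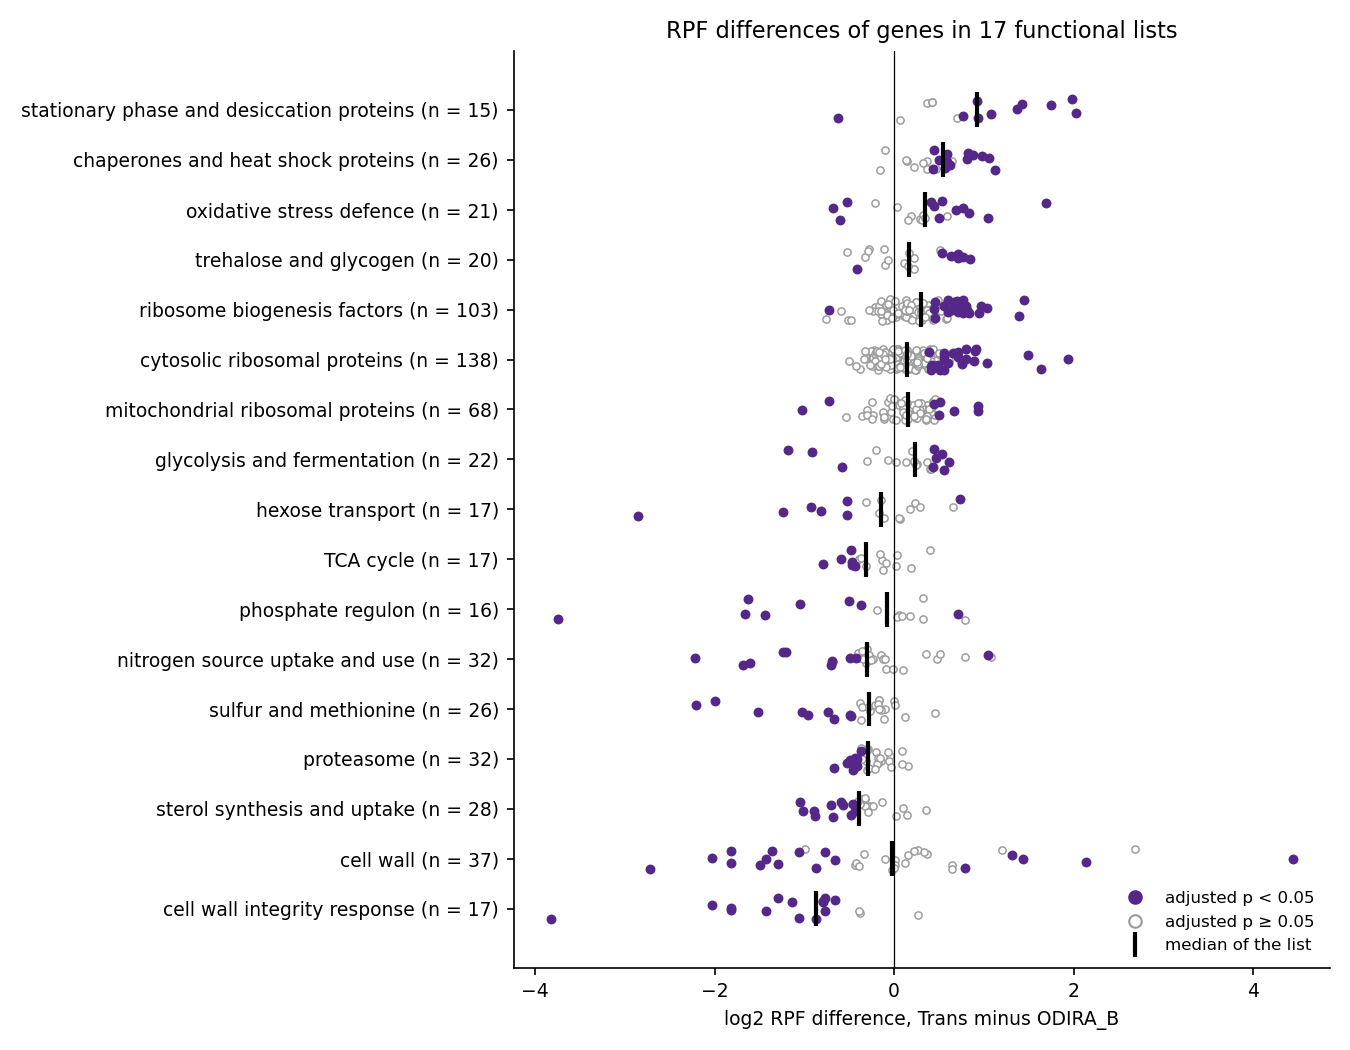
RPF difference (log2 of Trans over ODIRA_B) of every tested gene in 17 functional lists, 1 point for each gene, with a vertical bar at the median of each list. Filled points passed an adjusted p of 0.05; the stationary phase list sits highest, with a median of 0.92, and the cell wall integrity list lowest, with -0.87.

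Several stress and quiescence genes were higher in Trans. Among all tested genes 8.63% were called higher and 10.1% lower. Of 15 genes of stationary phase and desiccation, 9 were higher and 1 was lower in Trans, with a median of 0.92, and the number higher was 9 without ODIRA_B replicate 1 and 7 without ODIRA_B replicate 2. NQM1, a transaldolase of quiescent cells, had 261 and 238 CPM in Trans, against 83.5 and 65.4 CPM in ODIRA_B, a log2 difference of 1.74 (SE 0.17, adjusted p = 9.3e-05). The hydrophilin GRE1 had 713 and 775 CPM in Trans, against 246 and 119.9 CPM in ODIRA_B (2.02, adjusted p = 0.0029), and its relative SIP18 had 1362 and 923 CPM in Trans, against 337 and 241 CPM in ODIRA_B (1.98, adjusted p = 0.0027). The 2 ODIRA_B values of GRE1 were themselves unequal, and the calls of GRE1 and SIP18 were lost without Trans replicate 1 or 2 (highest adjusted p = 0.11 for GRE1 and 0.064 for SIP18). SPG5, a gene needed in stationary phase, was the 1 that was lower, at -0.63. CTT1, the cytosolic catalase, had 1457 and 1641 CPM in Trans, against 549 and 408 CPM in ODIRA_B, a log2 difference of 1.69 (SE 0.18, adjusted p = 1.8e-04), and was the largest of 9 rises and 3 falls among 21 genes of oxidative defence. Without ODIRA_B replicate 1 or replicate 2 that list had 2 rises, and 1 of its falls, CCP1, lies in the segment after GAP1. ComQuad was below either strain, with 66.8 and 79.1 CPM of CTT1, and ODIRA_A, with 1283 and 1648 CPM, overlapped Trans.

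Many chaperone genes were called higher in Trans. Of 26 genes, 16 were higher and 0 were lower in Trans, where 8.63% of all genes were higher, with a median of 0.55. This count depended on ODIRA_B, since it was 10 without ODIRA_B replicate 1 and 1 without ODIRA_B replicate 2. The 2 ODIRA_B libraries differed for several of these genes. HSP26, a small heat shock protein, had 1369 and 1094 CPM in Trans, against 838 and 503 CPM in ODIRA_B, and its adjusted p was 0.21 without ODIRA_B replicate 2. SSE2, a nucleotide exchange factor of Hsp70, had 373 and 438 CPM in Trans, against 228 and 183 CPM in ODIRA_B, a log2 difference of 0.98 (SE 0.15, adjusted p = 0.0016), and held in each such fit. HSP104, the disaggregase, had 2181 and 2921 CPM in Trans, against 1539 and 1351 CPM in ODIRA_B (0.82, adjusted p = 0.0064, and 0.085 without ODIRA_B replicate 2). In trehalose and glycogen metabolism 6 of 20 genes were higher and 1 was lower in Trans, with UGP1, which makes UDP-glucose, at 0.76 and TPS2, trehalose phosphatase, at 0.71. The count of higher genes was 3 without ODIRA_B replicate 1 and 2 without ODIRA_B replicate 2.

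The stress response element AGGGG, which Msn2 and Msn4 bind, was sought on both strands in the same windows. It stood before 224 of the 494 genes called higher in Trans (45.3%), before 200 of the 555 nuclear genes called lower (36.0%) and before 2234 of 6572 nuclear genes (34.0%). At least 2 elements stood before 9 of the 15 stationary phase genes and before 8.09% of nuclear genes. The list holds known targets of these factors. Examples are given for 4 genes of the list that were called higher in Trans. Each is 30 bases of R64 in the direction of the gene, with a single element, on either strand, in capitals. The window of NQM1 also holds another element, left in lower case.
SIP18 (chrXIII:610616-610645, + strand): tcccttaagcctCCCCTaaatgctttcggt
NQM1 (chrVII:581595-581624, - strand): ttcttccatagtAGGGGcgaatgaggggag
RTC3 (chrVIII:280608-280637, + strand): taacaacaacgaCCCCTtatttagtcgaag
DDR2 (chrXV:231913-231942, - strand): tgtcttttctcaCCCCTtatgggacatcaa
GRE1, the largest rise of the list, had no such element in its 500 bases. SOL4 and STF2, which have elements and belong to the list, did not pass, at 0.07 and 0.36. RTC3 had 249 and 368 CPM in Trans, against 124 and 115 CPM in ODIRA_B (1.37, adjusted p = 6.1e-04), and DDR2 had 2745 and 3753 CPM in Trans, against 1582 and 1482 CPM in ODIRA_B (1.08, adjusted p = 0.0013).

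A minority of the genes that make ribosomes were called higher in Trans. Of 103 ribosome biogenesis factors, 23 were higher and 1 was lower in Trans, where 8.63% and 10.1% of all genes were. Their median was 0.30. The number higher was 9 without ODIRA_B replicate 1 and 9 without ODIRA_B replicate 2, and 8 were lower without Trans replicate 1. NSR1, a nucleolar protein of pre-rRNA processing, had 435 and 362 CPM in Trans, against 144 and 147 CPM in ODIRA_B, a log2 difference of 1.45 (SE 0.16, adjusted p = 2.1e-04). NOP58, a core protein of the box C/D small nucleolar complexes, had 246 and 290.4 CPM in Trans, against 105 and 99.8 CPM in ODIRA_B, a log2 difference of 1.39 (SE 0.16, adjusted p = 2.7e-04). ODIRA_B was the low end for NOP58, since ODIRA_A and ComQuad had 193 to 259 CPM.

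Of 138 cytosolic ribosomal proteins 26 were higher and 0 were lower in Trans, where 8.63% and 10.1% of all genes were. Their median was 0.14. Without Trans replicate 1 the counts were 29 higher and 20 lower, and without ODIRA_B replicate 1 or 2 there were 5 higher. For several of these genes the second Trans library was far higher than the first. RPL22B, a ribosomal protein paralog, had 259 and 594 CPM in Trans, against 111 and 112 CPM in ODIRA_B, a log2 difference of 1.94 (SE 0.35, adjusted p = 0.0068), and RPL6A had 967 and 2156 CPM in Trans, against 505 and 496 CPM in ODIRA_B. RPL3 had close replicates, with 2468 and 2375 CPM in Trans, against 1416 and 1367 CPM in ODIRA_B, a log2 difference of 0.80 (SE 0.13, adjusted p = 0.0024). RPS26B lies in the chromosome V segment, with 3 copies in Trans and 1 in ODIRA_B. It had 467 and 421 CPM in Trans, against 178 and 138 CPM in ODIRA_B (1.49, adjusted p = 1.3e-04), whereas its paralog RPS26A had 721 and 576 CPM in Trans, against 569.5 and 551 CPM in ODIRA_B and did not pass (0.21). Beyond its copies RPS26B differed by -0.094 (SE 0.15, adjusted p = 0.72), and outside the segments 25 ribosomal protein genes were higher. Of the sequence of either RPS26 gene, 7.81% of 28-base stretches occur elsewhere. Among 37 translation factors only HEF3, an elongation factor 3 paralog, passed, with 191 and 194 CPM in Trans, against 101 and 64.6 CPM in ODIRA_B (1.22, adjusted p = 0.0019).

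Outside the segments, the largest rise was that of NCA3. NCA3, a member of the SUN family of wall-associated proteins that was first described for its part in mitochondrial ATP synthase expression, had 202 and 234 CPM in Trans, against 9.44 and 10.6 CPM in ODIRA_B, a log2 difference of 4.44 (SE 0.18, adjusted p = 3.3e-07). ODIRA_A had 88.9 and 73.4 CPM and ComQuad had 13.1 and 13.7 CPM, so ODIRA_A also lay above ODIRA_B and ComQuad. FMP48, a putative mitochondrial kinase, had 104 and 117 CPM in Trans, against 29.1 and 24.9 CPM in ODIRA_B, a log2 difference of 2.03 (SE 0.15, adjusted p = 1.3e-05). ICS2, of unknown function, had 231 and 349.7 CPM in Trans, against 76.6 and 55.1 CPM in ODIRA_B (2.14), and ECL1, which extends chronological life span when overexpressed, had 23.6 and 41.6 CPM in Trans, against 9.44 and 6.99 CPM in ODIRA_B (1.98). The Trans libraries of ECL1 were unequal, as were those of several other large rises. The repressor of ribosome biogenesis genes DOT6 had 216 and 624 CPM in Trans, against 117 and 128 CPM in ODIRA_B (1.77, adjusted p = 0.029), and its call was lost without either ODIRA_B library (highest adjusted p = 0.13). The same held for YLR402W (2.52), a dubious open reading frame, and for YFR032C-B (1.86) without ODIRA_B replicate 2, whereas YPL068C (1.90) held.

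Some of the largest falls belonged to none of these groups. RTA1, a membrane protein that gives resistance to the sterol analogue aminocholesterol, had 2.12 and 1.73 CPM in Trans, against 33.3 and 57.9 CPM in ODIRA_B, a log2 difference of -4.55 (SE 0.38, adjusted p = 3.5e-05). SRD1, a gene of pre-rRNA processing that the study's methods list as deleted in the FY4 parent, had 2.99 and 4.25 CPM in Trans, against 70.8 and 62.9 CPM in ODIRA_B, a log2 difference of -4.20 (SE 0.26, adjusted p = 4.7e-06). HO, the mating type switching endonuclease had 4.37 and 9.70 CPM in Trans, against 88.8 and 89.99 CPM in ODIRA_B (-3.67). YLR125W, of unknown function, had 0 RPFs in both Trans libraries and 73 RPFs in the 2 ODIRA_B libraries, at least 52.7-fold lower in Trans, and was also chosen after its values were seen. The other 4 libraries had 2.33 to 8.55 CPM of YLR125W, above 0 in each.

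Chromosome IX stood apart from all other nuclear chromosomes, a pattern noticed after the values were seen. Over genes outside the CNV segments, the median log2 difference was 0.34 for the 207 tested genes of chromosome IX and lay between -0.08 and 0.06 for the other 15 chromosomes. On chromosome IX, 169 genes had a positive difference (81.6%), 48 were called higher (23.2%, where 8.63% of all genes were) and 7 were called lower in Trans. Against the mean of the 4 ODIRA_A and ComQuad libraries, the median of its 198 genes that reached 10 RPFs in all 8 libraries was 0.02 and 0.09 in the Trans libraries and -0.29 and -0.31 in the ODIRA_B libraries. No other chromosome had a median below -0.04 or above 0.11 in any of the 4 libraries. The chromosome was thus near the other strains in both Trans libraries and low in both ODIRA_B libraries. In 3 stretches of 69 genes the median difference was 0.27 from YIL177C to DPH1, 0.47 from YIL102C-A to SSM4 and 0.31 from YIL029C to YIR042C.

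**Figure D4:**
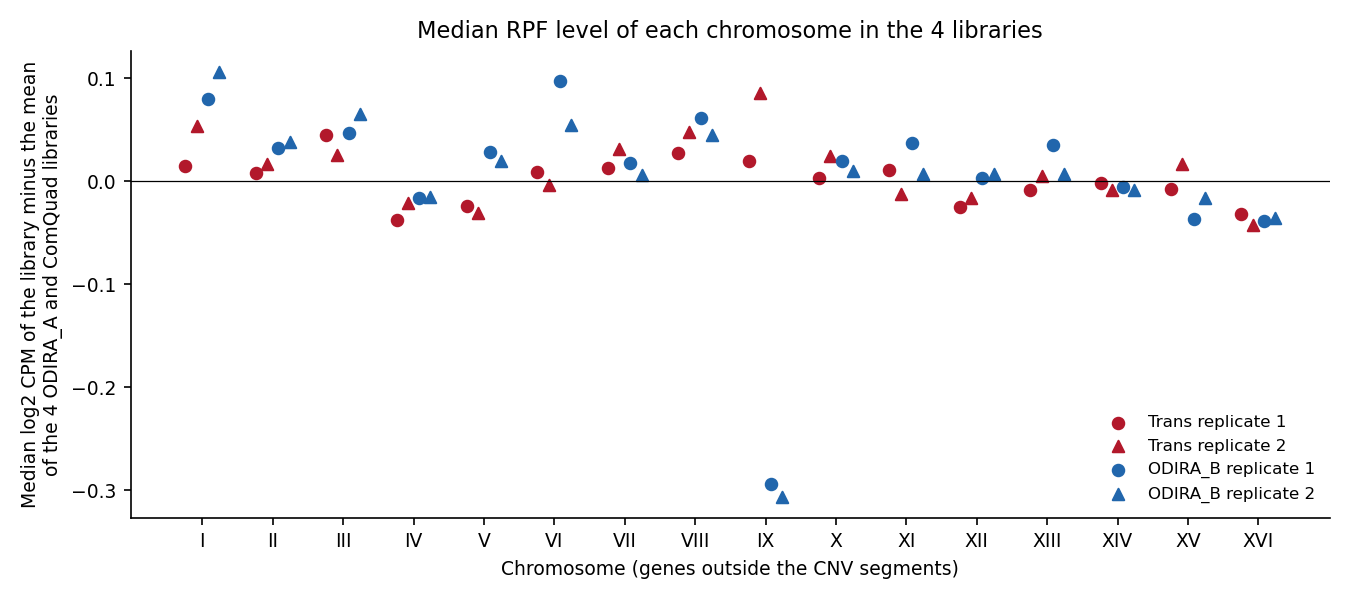
Median over the genes of each nuclear chromosome (genes outside the CNV segments that reached 10 RPFs in all 8 libraries) of log2 CPM in each Trans library (red) and each ODIRA_B library (blue) minus the mean of the 4 ODIRA_A and ComQuad libraries. Chromosome IX lies at 0.02 and 0.09 in Trans and at -0.29 and -0.31 in ODIRA_B, and all other medians lie between -0.04 and 0.11.

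Single genes of chromosome IX showed the shift in both replicates. MGA2, a regulator of the fatty acid desaturase gene, had 70.1 and 78.8 CPM in Trans, against 32.5 and 45.0 CPM in ODIRA_B, a log2 difference of 0.94 (SE 0.16, adjusted p = 0.0032). SUC2, invertase, had 51.8 and 53.6 CPM in Trans, against 31.9 and 33.0 CPM in ODIRA_B (0.70, adjusted p = 0.0086). TIM44, a subunit of the mitochondrial import motor, had 112 and 167 CPM in Trans, against 68.8 and 75.7 CPM in ODIRA_B (0.95, adjusted p = 0.0053). These were chosen after their values were seen. The calls of SUC2 and TIM44 were lost without ODIRA_B replicate 1 (adjusted p = 0.081 and 0.064), whereas the median of the chromosome stayed between 0.32 and 0.36 with each library left out in turn. Without ODIRA_B replicate 1 the number of its genes called higher was 8, of 135 over all genes, and without ODIRA_B replicate 2 it was 9, of 116. Without Trans replicate 1 it was 79. The copy number of chromosome IX was not analysed here. Exceptions included DAL7, a malate synthase of allantoin use, which was lower in Trans, with 95.6 and 87.7 CPM in Trans, against 216 and 217 CPM in ODIRA_B (-1.24, adjusted p = 5.4e-05).

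Of 187 tested genes within 20 kb of a chromosome end, out of 318 in all, 48 were lower and 21 were higher in Trans, where 10.1% of all genes were lower and 8.63% higher, and their median was -0.21. The counts were 35 lower and 8 higher without ODIRA_B replicate 1 and 34 lower and 6 higher without ODIRA_B replicate 2. Of these genes 9 lie in the CNV segments, and outside the segments 46 were lower and 19 were higher. Many belong to families with near-identical members. The COS genes, among which COS6, picked after its values were seen, had 373 and 264 CPM in Trans, against 803 and 779 CPM in ODIRA_B (-1.31), are hard to separate, as 57.6% of the 28-base stretches of COS6 occur elsewhere. Of the genes with a coding variant in either strain, 4 could be tested and none passed. MSE1, mitochondrial glutamyl-tRNA synthetase, which carries an amino acid change in Trans, had 16.96 and 21.1 CPM in Trans, against 14.7 and 15.4 CPM in ODIRA_B (0.34, adjusted p = 0.31), and SHE10, UPS2 and YHR217C had adjusted p values of 0.069, 0.10 and 0.58. The study lists a synonymous variant of YHR217C in Trans, yet this gene lies at the end of chromosome VIII that was assigned 0 copies there. Of the 28-base stretches of YHR217C 63.7% occur elsewhere, so its reads cannot be told apart from those of its copies. YNL017C, with an amino acid change in ODIRA_B, held at most 0.665 CPM in the 4 libraries and was not tested.

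Both strains had the mating type markers of MATa cells. STE2, the alpha factor receptor of MATa cells, had 98.3 and 76.6 CPM in Trans, against 178 and 165 CPM in ODIRA_B, and the alpha-specific genes were lower in sum. STE3, the a-factor receptor of alpha cells, was called higher in Trans, with 21.6 and 30.7 CPM in Trans, against 16.1 and 10.1 CPM in ODIRA_B (1.00, adjusted p = 0.027), and both Trans libraries lay above all 6 others. SAG1, another alpha-specific gene, was at 3.37 and 2.92 CPM in Trans and 3.05 and 2.79 CPM in ODIRA_B. The 4 alpha-specific genes summed to 31.4 and 38.5 CPM in Trans and to 23.6 and 17.9 CPM in ODIRA_B, against 666 and 1367 CPM in Trans and 966 and 827 CPM in ODIRA_B for the 7 a-specific genes. Among the a-specific genes MFA1, STE2 and BAR1 were lower in Trans, at -1.01, -0.97 and -0.77. The pheromone gene MFA2 was higher, with 290.1 and 931 CPM in Trans, against 161 and 169 CPM in ODIRA_B (1.89, adjusted p = 0.034, and 0.14 without ODIRA_B replicate 1), and its 2 Trans values were far apart.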

How the data were processed

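The deposited tables hold raw counts of RPF reads for each annotated feature. The authors selected fragments by size on a gel, removed reads that matched snRNA, rRNA or tRNA, mapped what was left to the R64-1-1 genome (STAR) and counted by strand (bedtools), and the submitters' notes also name cutadapt. How reads with several matches or duplicates were handled is not given in the sources used here. For each of the 6600 protein-coding genes, the counts of its CDS rows were added up. A gene was tested if 2 or more of the 8 libraries reached 10 RPFs, which left 5725. The test was edgeR's (version 4.0.16, R 4.3.3), after TMM scaling, from 1 quasi-likelihood fit over all 4 strains (4 residual degrees of freedom, common biological coefficient of variation 0.123), and p values were adjusted by Benjamini-Hochberg over all genes tested. A second fit added the log of each gene's assigned copies in Trans and ODIRA_B to the offsets (5715 genes). In it every gene of ODIRA_A and ComQuad was set to 1 copy. The copies were assigned from the CNV structures that the study describes, not from these counts. The script was tested on simulated data. Alternatives were DESeq2 1.42.0, other scalings and filters, only the 4 libraries compared, a replicate block and each library left out. An interval of 95% on a ratio covers counting error only.

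The members and lists were chosen with earlier results of these data known, and 2 of the 37 lists were added after values were seen. Named genes were the segment ends, the 12 largest rises and falls outside the segments with a mean of at least 10 CPM, up to 10 genes beyond copy number, genes with coding variants and up to 4 genes of each list, with more where a list was described whole.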

Additional observations from a re-analysis of the deposited data

Results flagged for a closer look

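Reads on features other than protein-coding genes entered no comparison. The 91 Ty element genes, of the retrotransposons, held 32865 and 43122 RPFs in Trans and 14503 and 16465 RPFs in ODIRA_B, in libraries of unequal depth. The 2 mitochondrial rRNA genes held 19 and 10 RPFs in Trans and 2211 and 406 RPFs in ODIRA_B, and the mitochondrial noncoding RNA held 0 in both Trans libraries and 53 in each ODIRA_B library. The 12 pseudogenes held 188 and 139 RPFs in Trans and 63 and 60 RPFs in ODIRA_B. None of these was tested, and what their part was in the results on mitochondrial genes was not tested.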

How the results depend on the processing

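The counts of calls depended most on the libraries used. With only the 4 libraries compared, 215 genes were higher and 335 were lower in Trans, and beyond copy number 189 were higher, 293 were lower and 8 were in the segments. With each library left out in turn, 116 to 951 genes were higher and 205 to 918 were lower, and beyond copy number 87 to 939 were higher, 166 to 878 were lower and 4 to 31 were in the segments. Both lowest counts of higher and lower genes came without ODIRA_B replicate 2 and both highest without Trans replicate 1. In the segments 12 to 18 genes were higher and 27 to 51 were lower. The medians ran from 1.42 to 1.60 on chromosome V, 0.99 to 1.41 from PCK1 to the telomere, -1.63 to -1.44 from VPS1 to TOF2, -0.61 to -0.52 after GAP1 and 0.32 to 0.36 on chromosome IX. From TOF2 to GAP1 they ran from -0.028 to 0.089, with -0.028 without Trans replicate 2. The median from PCK1 to the telomere was 1.07 with at least 10 RPFs in every library and 1.07 with no filter. DESeq2 called 520 genes higher and 579 lower.

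Replicate numbers are not stated to pair the chemostats. A replicate block gave 481 higher and 578 lower genes, 1003 of the 1070 among them, and SSA3, GDH2, RME1, HTB2, ATP2 and PRC1 lost their call, as did ECM9 beyond copy number. Of 158 named genes in the fit over all genes 0 reversed and 68 lost their call in at least 1 alternative. With 4 residual degrees of freedom and the lower depth of ODIRA_B, small differences of low genes were not detectable.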

Other observations

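Over all tested genes 8.63% were called higher in Trans and 10.1% lower, the shares to set beside the counts of the lists below. Of 11 genes of daughter cell separation, 0 were higher and 4 were lower in Trans, with a median of -0.37. The lower genes were DSE3, DSE4 and DSE1, of the daughter-specific programme of septum breakdown and budding pattern, and ASH1, the repressor of HO in daughter cells. DSE3 had 20.5 and 19.0 CPM in Trans, against 45.8 and 36.6 CPM in ODIRA_B (-1.06, adjusted p = 0.0015), and ASH1 had 98.9 and 121 CPM in Trans, against 169 and 169.6 CPM in ODIRA_B (-0.62, adjusted p = 0.026), whereas HO itself was lower in Trans too, at -3.67. Of 9 genes of the haploid mating response, 1 was higher and 3 were lower in Trans, with a median of 0.09. Of 9 vacuolar proteases, 0 were higher and 3 were lower in Trans, with a median of -0.35. PRB1, vacuolar proteinase B, had 1592 and 1916 CPM in Trans, against 3458 and 3465 CPM in ODIRA_B (-0.98, adjusted p = 9.6e-04). Of 29 autophagy genes, 1 was higher and 4 were lower in Trans, with a median of -0.04. ATG8, the ubiquitin-like protein of the autophagosome, stood at -0.76 (adjusted p = 0.0020).

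Of 22 genes of glycolysis and fermentation, 6 were higher and 3 were lower in Trans, with a median of 0.23, but without ODIRA_B replicate 1 or replicate 2 0 were higher and 1 or 2 were lower. HXK2, the main hexokinase on glucose, had 525 and 598 CPM in Trans, against 1052 and 1067 CPM in ODIRA_B (-0.92, adjusted p = 0.0031), whereas HXK1, its paralog, had 332 and 350.0 CPM in Trans, against 249 and 219.9 CPM in ODIRA_B (0.54, adjusted p = 0.030). Of 16 genes of gluconeogenesis and the glyoxylate cycle, 2 were higher and 1 was lower in Trans, with a median of 0.16. PCK1, CIT2 and SFC1 were the 3 called, at 2.39, -0.94 and 0.77, and PCK1 also differs in copies. Of 13 genes of fatty acid beta-oxidation, 0 were higher and 2 were lower in Trans, with a median of -0.05. FOX2, the multifunctional enzyme of the pathway, lies in the segment from VPS1 to TOF2, with 1 copy in Trans and 3 in ODIRA_B, and had 38.9 and 33.6 CPM in Trans, against 130.2 and 118 CPM in ODIRA_B (-1.77, adjusted p = 4.4e-05). Beyond its copies it differed by -0.19 (adjusted p = 0.43), and 1 gene of the list was lower outside the segments. Of 63 amino acid biosynthesis genes, 6 were higher and 10 were lower in Trans, with a median of -0.06, and the counts were 0 and 2 without ODIRA_B replicate 1 and 1 and 3 without ODIRA_B replicate 2. SER3, of serine synthesis, was the largest rise among them, at 0.97 (adjusted p = 0.0036). Of 17 purine synthesis genes, 0 were higher and 3 were lower in Trans, with a median of -0.13. The lower IMD2 and MTD1 lie in CNV segments, and outside them 1 gene was lower and the median was -0.06. ADE8, of the de novo pathway, had 40.2 and 32.7 CPM in Trans, against 77.7 and 72.4 CPM in ODIRA_B (-1.04, adjusted p = 0.0017).

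Of 20 iron uptake genes, 2 were higher and 4 were lower in Trans, with a median of -0.13. ENB1, the enterobactin transporter, had 3.74 and 2.79 CPM in Trans, against 16.7 and 22.9 CPM in ODIRA_B (-2.59, adjusted p = 0.0012). Of 68 mitochondrial ribosomal protein genes, 6 were higher and 2 were lower in Trans, where 8.63% and 10.1% of all genes were. Their median was 0.16. The 2 lower genes, MRPL13 and MRPL20, lie in segments where ODIRA_B has more copies, 0 genes were lower outside the segments, and MRPL13 stood at 0.56 beyond its copies. Of 10 histone genes, 2 were higher and 2 were lower in Trans, with a median of 0.10. Of 18 cytosolic aminoacyl-tRNA synthetases, 1 was higher and 1 was lower in Trans, with a median of -0.05. Of 5 GATA factors of nitrogen control, 1 was higher and 0 were lower in Trans, with a median of 0.28. GLN3, an activator of nitrogen genes, had 93.8 and 139 CPM in Trans, against 69.1 and 80.8 CPM in ODIRA_B (0.63, adjusted p = 0.035), while the list of genes of nitrogen uptake and use had a median of -0.30. Of the 4 genes of aromatic amino acid breakdown 3 were lower, with a median of -1.26. Of 16 genes of the phosphate regulon 7 were lower and 1 was higher in Trans, with a median of -0.08. PHO11 and PHO12, both among the 7, count as 1 observation, as 93.25% and 92.2% of their 28-base stretches occur elsewhere. The difference of PHO11 (-1.62) cannot be told apart from that of PHO12. PHO12, among the 7, lies at the end of chromosome VIII that Trans lacks, and the number lower was 3 without ODIRA_B replicate 1 and 5 without ODIRA_B replicate 2. Most of these counts rest on both ODIRA_B libraries: with either left out the lists of daughter separation, autophagy, iron uptake, histones, vacuolar proteases, mating response and GATA factors each had at most 2 genes lower and 1 higher.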
